A study of Mus musculus with 35 samples.

Results

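*Dppa2*, *Dppa3*, *Dppa4* and *Dppa5a* are genes of the developmental pluripotency associated (Dppa) family, and they were taken by name from a table of RNA levels, in which they are 4 of 26127 rows. The table comes from sequencing of ribosome-depleted total RNA of mouse embryonic stem cells (ESCs). Their *Dnmt1* gene, which encodes the enzyme that copies DNA methylation after replication, could be removed with tamoxifen-induced Cre. All groups carry loxP sites at both *Dnmt1* alleles according to the methods. The control (WT) cells kept the gene and the KO cells were induced to lose it from day 0, and the ESCs grew in serum with LIF, with or without feeder cells. Both were sampled on days 0, 1, 3, 6, 9, 11, 17 and 25, with 2 libraries for each genotype and day and 3 at day 1. The remaining library came from *Dicer* KO cells, a constitutive deletion made by CRISPR in the same floxed background and grown from 1 cell, so it stands for 1 clone. The labels give E14 as the strain of all samples, while the methods name C57BL/6 for the floxed ESCs.

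The name of the family refers to expression in pluripotent cells and not to a shared ancestry of all members, though *Dppa2* and *Dppa4* are related genes. DPPA2 and DPPA4 are SAP-domain proteins that act together on chromatin, and in ESCs they are known as activators of genes of the 2-cell embryo. DPPA3 (also STELLA or PGC7) marks primordial germ cells and the oocyte, and is known to keep UHRF1, the partner of DNMT1, from maintaining methylation. DPPA5A (also ESG1) is a KH-domain protein that binds RNA and is abundant in ESCs.

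The 4 genes lie at 3 places of mouse build NCBIM37. *Dppa4* (ENSMUSG00000058550.7, chromosome 16, 48283848 to 48294405) and *Dppa2* (ENSMUSG00000072419.4, chromosome 16, 48310590 to 48319836) are neighbours on the plus strand, 16185 bases apart. *Dppa3* (ENSMUSG00000046323.2) spans 122576428 to 122580290 on the plus strand of chromosome 6, where *Gdf3* and *Nanog* lie 16323 and 77217 bases away. *Dppa5a* (ENSMUSG00000060461.5) spans 78214859 to 78215984 on the minus strand of chromosome 9, 7932 bases from *Ooep*. The annotation gives 7 exons each to *Dppa2* and *Dppa4*, 5 to *Dppa3* and 3 to *Dppa5a*. Their exons add up to 1948 bases in *Dppa2*, 1534 in *Dppa4*, 892 in *Dppa3* and 619 in *Dppa5a*.

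*Dppa5a* has a near copy in the table, *Dppa5b*, 120456 bases away on chromosome 9 (78093301 to 78094403, plus strand). The first 120 bases of both coding sequences are shown here because reads from one copy can be credited to the other, and the capitals mark the 3 bases of this stretch at which the copies differ.
Dppa5a: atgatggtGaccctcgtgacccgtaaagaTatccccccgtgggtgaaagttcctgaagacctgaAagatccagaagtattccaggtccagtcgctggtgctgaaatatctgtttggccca
Dppa5b: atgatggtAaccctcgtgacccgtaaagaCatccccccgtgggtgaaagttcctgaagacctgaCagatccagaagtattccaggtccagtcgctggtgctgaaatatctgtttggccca
Over the whole coding sequence of 357 bases the copies differed at 9 bases (97.5% identity), and the longest run without a difference was 158 bases. The sequences are from the GENCODE vM1 transcripts of NCBIM37. The authors discarded reads of low mapping quality, among which reads that match both copies equally well would fall.

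The reads in exons of genes, as recovered from the deposited values, came to between 5.2 M and 18.0 M per library (M, mega-reads). The libraries formed 2 sets by the percentage of their reads that fell in exons. It was 20.7% to 22.4% in 20 libraries, here low-share (all of days 0, 3, 6 and 9, with the first and second of each genotype at day 1), and 44.7% to 49.9% in 15, here high-share (*Dicer* KO, all of days 11, 17 and 25, with the third of each genotype at day 1). Levels are therefore compared across days only within one set, and the third day 1 pair crosses the sets. *Dnmt1* followed the labels on days 1, 3, 9, 11, 17 and 25, when WT libraries had between 14.1 and 34.8 RPKM (reads divided by exon length in kilobases and by the library's mega-reads) and KO libraries between 2.58 and 8.13 RPKM, the highest of these being the third KO library of day 1. At day 0 the genotypes had 18.3 and 18.6 RPKM on average. At day 6 *Dnmt1* went against the labels, with 3.217 and 3.405 RPKM in the libraries labelled WT and 20.2 and 20.4 RPKM in the libraries labelled KO, and day 6 directions below are those of the labels as given. The ESC marker *Pou5f1* had between 45.5 and 260 RPKM over the 34 WT and KO libraries and *Sox2* between 43.7 and 84.6 RPKM.

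In RPKM, which is a level per exon length, *Dppa5a* was the highest of the 4 genes in each of the 35 libraries, followed by *Dppa4*. *Dppa5a* ranged from 321 to 1043 RPKM (median 396) and *Dppa4* from 18.3 to 69.0 RPKM (median 28.8). *Dppa2* ranged from 3.73 to 35.5 RPKM (median 9.66). *Dppa3* ranged from 5.82 to 38.6 RPKM (median 8.14) in the WT and KO libraries and had 0.0435 RPKM in the *Dicer* KO library. The order of *Dppa2* and *Dppa3* was not fixed. *Dppa2* was above *Dppa3* in 19 libraries and below it in 16. The fewest reads behind a value in a WT or KO library were 139 for *Dppa3*, 194 for *Dppa2*, 749 for *Dppa4* and 5653 for *Dppa5a*.

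**Figure D1:**
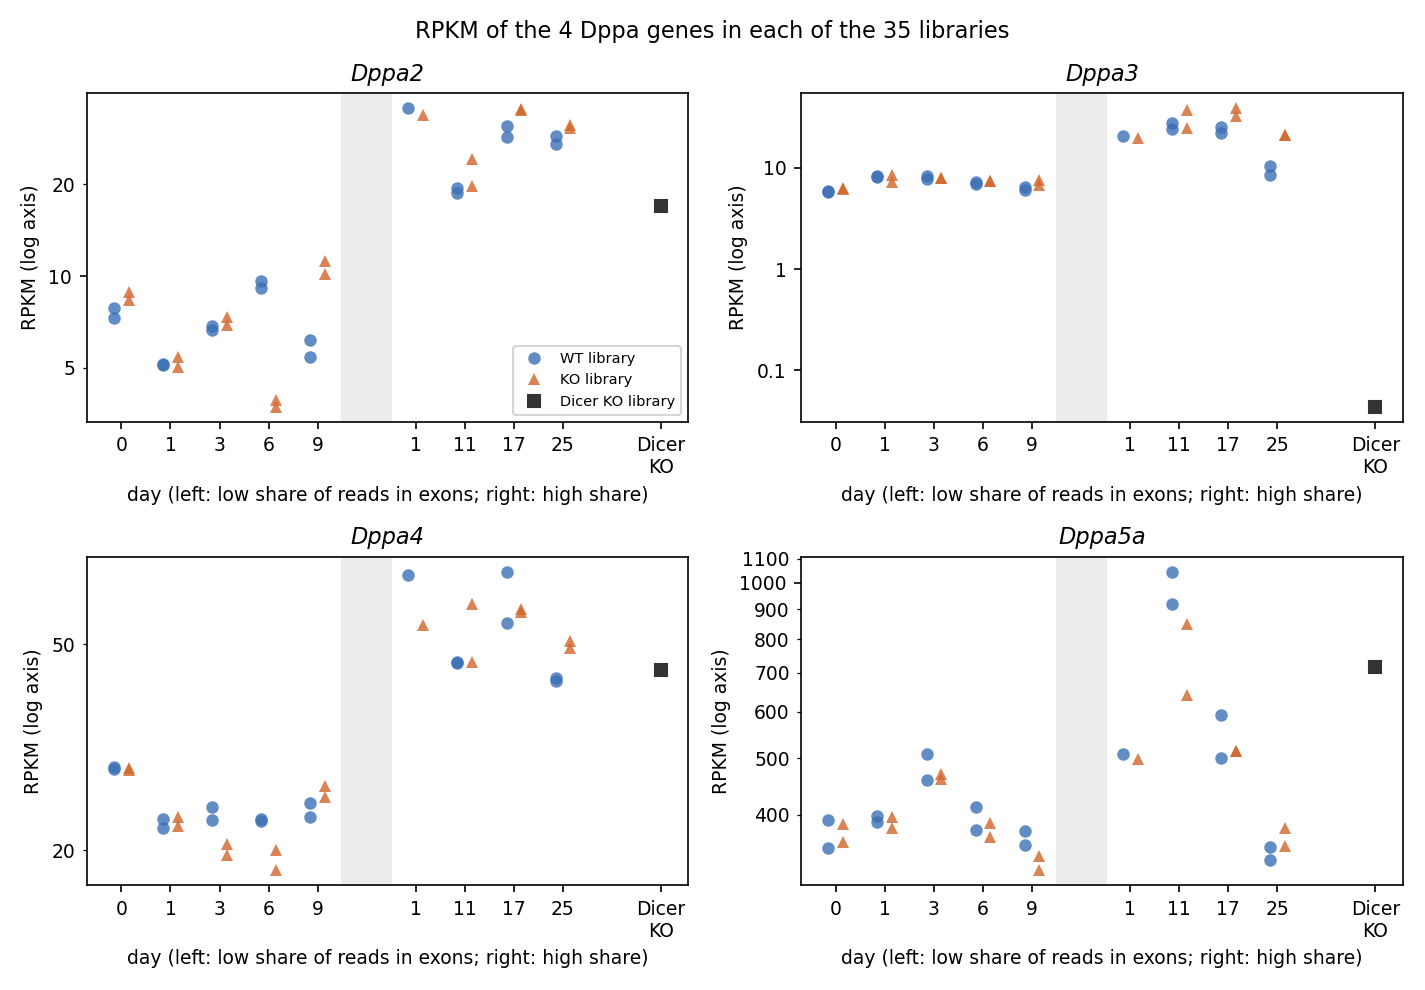
RPKM (log axis) of *Dppa2*, *Dppa3*, *Dppa4* and *Dppa5a* in each library by day, with circles for WT, triangles for KO and a square for *Dicer* KO. A grey band separates low-share (left) from high-share libraries (right). *Dppa3* was higher in both KO libraries than in both WT libraries at days 0, 6 (as labelled), 9, 17 and 25. On these days 37.6%, 69.6%, 71.9%, 64.6% and 82.8% of all genes tested did not overlap between the genotypes. In the *Dicer* KO library *Dppa3* was at 0.0435 RPKM.

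The third day 1 pair allowed the same genotype and day to be read in both sets. *Dppa2* had 5.12 and 5.17 RPKM in the low-share WT libraries of day 1 and 35.5 RPKM in the high-share WT library. The corresponding KO values were 5.44, 5.05 and 33.9 RPKM. The high-share value was thus 6.79-fold higher in WT and 6.36-fold higher in KO on the log2(RPKM + 0.1) scale, above 98.9% of the 11615 genes tested in each genotype. The median gene differed by 1.01 on the log2 scale in each genotype. *Dppa4* was 3.01-fold and 2.39-fold higher, *Dppa3* 2.51-fold higher in both genotypes, and *Dppa5a* 1.29-fold and 1.28-fold higher. The ratio of *Dppa2* to *Dppa4* in RPKM was 0.196 to 0.442 in low-share and 0.383 to 0.681 in high-share libraries. Library and culture differences between the sets cannot be told apart.

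KO and WT were then compared at each day. Differences are KO minus WT on the log2(RPKM + 0.1) scale from a limma model of group means over all 34 WT and KO libraries, with p adjusted (Benjamini-Hochberg) over 11615 genes and a call at an adjusted p below 0.05. Because the third day 1 pair widens the spread that all groups share, the fit without that pair is given for each member wherever it changes a call. Of the 32 comparisons of a member and a day, 1 was called over all 34 libraries, *Dppa3* at day 25. The share of all genes called was 0% at day 0, 0.00861% at day 1, 0.663% at day 3, 2.84% at day 6, 3.29% at day 9, 5.62% at day 11, 10.4% at day 17 and 20.9% at day 25. Without the third day 1 pair it was 0%, 0.284%, 11.9%, 28%, 28%, 35.8%, 40.9% and 65.9% on the same days, and 8 of the 32 comparisons were called. At day 0 neither limma nor voom called a gene. Before adjustment the limma p was below 0.05 for 9 genes, and for 265 without the pair. Nothing says that the 2 libraries of a group came from separate cultures, so these p-values measure only the spread between the libraries, and in bulk RNA a change in the number of cells that express a gene cannot be told apart from a change per cell.

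**Figure D2:**
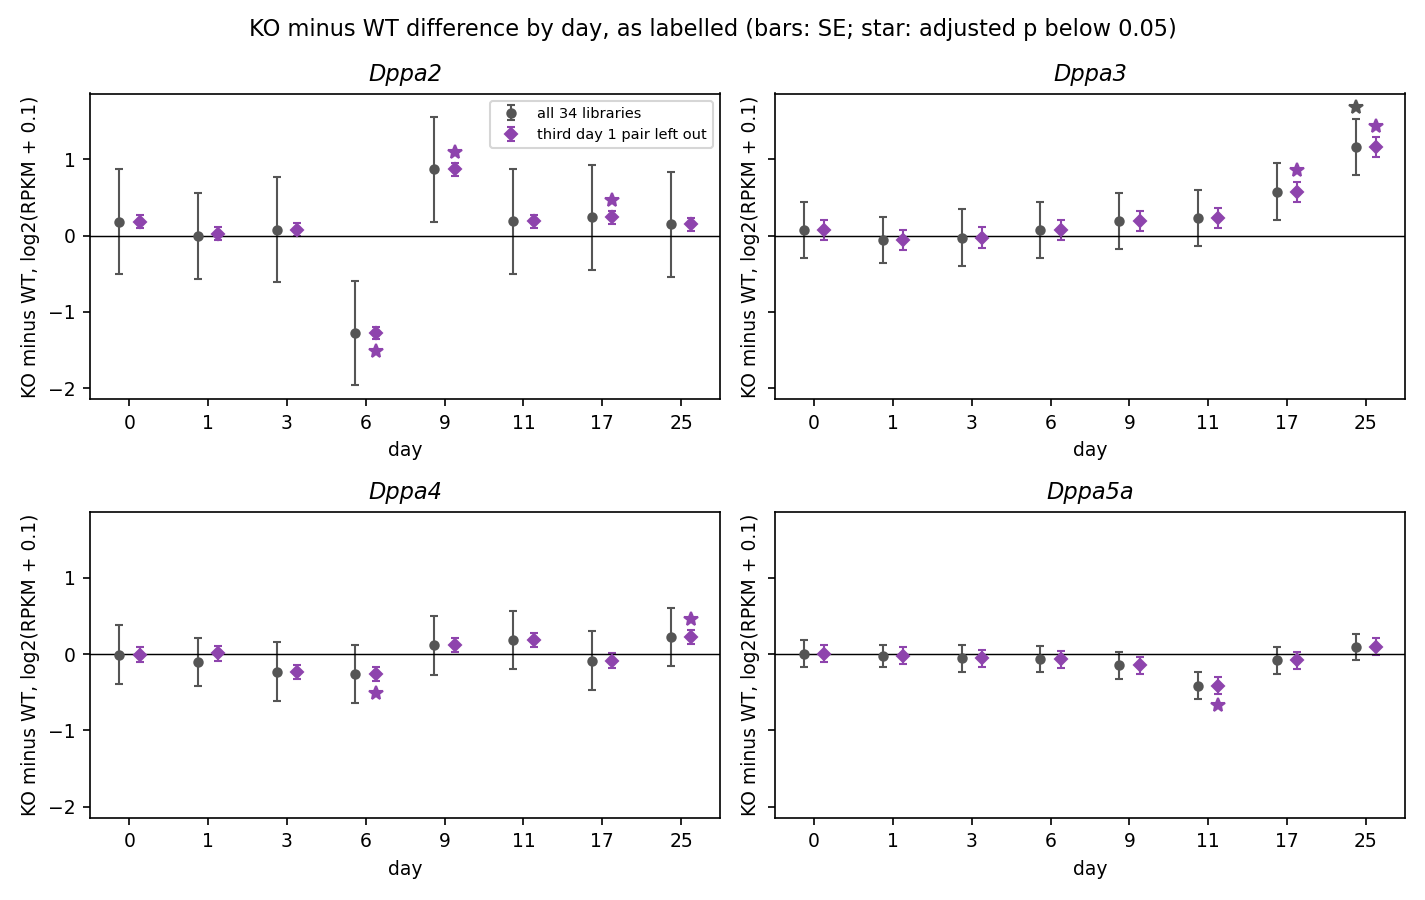
KO minus WT difference of each gene by day on the log2(RPKM + 0.1) scale, as labelled. Points with SE bars are from all 34 libraries (grey) or without the third day 1 pair (purple), a star marks a limma adjusted p below 0.05, and *Dppa3* differed by 1.16 at day 25 in both fits, and *Dppa2* by -1.28 at day 6 and 0.87 at day 9.

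*Dppa3*, the germ cell and oocyte gene, was the member that differed in the fit of all 34 libraries. At day 0 it had 5.94 and 5.82 RPKM in WT and 6.11 and 6.25 RPKM in KO. At day 1 it had 8.25 and 8.03 RPKM in WT and 7.24 and 8.42 RPKM in KO, with 20.5 and 19.7 RPKM in the third libraries. Up to day 9 the genotypes were close, and the difference lay between -0.06 and 0.19 over days 0 to 9. At day 3 the WT libraries had 7.83 and 8.35 RPKM and the KO libraries 7.89 and 8.01 RPKM, at day 6 those labelled WT had 6.94 and 7.22 RPKM and those labelled KO 7.43 and 7.46 RPKM, and at day 9 WT had 6.07 and 6.41 RPKM and KO 7.54 and 6.74 RPKM. None of these 5 days gave a call in either fit.

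At day 11 *Dppa3* had 27.9 and 24.4 RPKM in WT and 37.6 and 24.8 RPKM in KO. One KO library lay between the WT libraries, and the difference was 0.23 ± 0.37 (SE). Without the third day 1 pair and KO replicate 2 of day 11, *Dppa3* (0.53), *Dppa2* (0.34) and *Dppa4* (0.37) were called higher in KO at day 11, beside 34.1% of all genes. Leaving out KO replicate 1 in its place gave -0.07, 0.04 and 0.0027 with no call, where 47.3% of all genes were called. At day 17 it had 25.14 and 22.3 RPKM in WT and 38.6 and 32.5 RPKM in KO. Both KO libraries were above both WT libraries, and the difference of 0.58 ± 0.37 (SE) was called without the third day 1 pair (limma adjusted p = 0.00133) and not over all 34 libraries (0.499). The lists of other cell types moved at this day as well: the summed level of 10 trophoblast markers lay between 60.1 and 70.8 RPKM in WT and between 292 and 301 RPKM in KO, and that of 18 fibroblast markers between 38.4 and 41.6 and between 55.9 and 56.8 RPKM. *Krt8* and *Krt18*, the tested trophoblast markers above 1 RPKM in WT at this day, differed by 2.29 and 2.10 on the log2 scale. Of the 12 fibroblast markers tested 2 were called higher over all 34 libraries. Without the third day 1 pair 6 were called higher and 1 lower, where 40.9% of all genes were called. *Postn*, *Lum* and *Prrx1* were at 0 in both WT libraries. The part of these markers in the *Dppa3* difference was not tested.

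At day 25 *Dppa3* had 8.51 and 10.4 RPKM in WT and 21.3 and 21.1 RPKM in KO. Both KO libraries were above both WT libraries, by 2.24-fold on average, and the difference was 1.16 ± 0.37 (SE, 95% interval 0.39 to 1.93, limma adjusted p = 0.0275). Leaving out any 1 of the 4 day 25 libraries ended this call over all 34 libraries, with differences between 1.02 and 1.31 and adjusted p between 0.067 and 0.186. Without the third day 1 pair the adjusted p was 2.56e-07, and between 1.47e-06 and 2.83e-05 when any 1 of the 4 libraries was left out as well. The day 25 libraries also differed in a way that followed the length of genes. Among the fifth of genes with the shortest exons (up to 1714 bases, which holds *Dppa3*, *Dppa4* and *Dppa5a*) the median KO minus WT difference was 0.37, and among the fifth with the longest it was -0.14. *Dppa3* lay above 91.0% of the genes of its length group, *Dppa4* (0.22) above 39.4% and *Dppa5a* (0.10) above 31.6%. Reads in exons made up 44.7% and 45.2% of the WT libraries of day 25 and 49.9% and 49.4% of the KO libraries. The summed level of the 18 fibroblast markers lay between 65.5 and 68.3 RPKM in WT and between 89.4 and 92.8 RPKM in KO, where 2 of the 12 tested were called higher (*Vim* and *Sparc*) and 2 lower (*Fn1* and *Pdgfra*), and *Dcn* and *Prrx1* were at 0 in both WT libraries. The part of gene length, exon share and these markers in the *Dppa3* difference was not tested.

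The WT level of *Dppa3* was lower at day 25 than on days 11 and 17, and the 2 KO libraries of day 25 were also the lowest of the 6 KO libraries of these days. In WT it was lower at day 25 than at day 11 by 1.46 on the log2 scale (with an SE of 0.37, limma adjusted p = 0.00455), a comparison in which 28.7% of all genes were called (68.5% without the third day 1 pair). Leaving out replicate 1 of WT day 25 ended this call (-1.32, adjusted p = 0.0533). The 6 KO libraries lay between 21.1 and 38.6 RPKM. The KO minus WT difference of day 25 exceeded that of day 11 by 0.93 ± 0.52 (SE), which was called without the third day 1 pair (limma adjusted p = 2.67e-04) and not with it (0.287). For this difference between days 14.4% of all genes were called, and 57.5% without the pair. WT day 9 and WT day 0 did not give a call for *Dppa3* (0.09 ± 0.37, SE), where 0.0947% of all genes were called, and 16.3% without the pair.

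Of the 10 rows of the table within 200 kb of *Dppa3*, 5 were tested. *Nanog*, which encodes a homeodomain factor of naive pluripotency, had 161 and 157 RPKM in WT and 225 and 166 RPKM in KO at day 11. It had 69.9 and 67.4 RPKM in WT and 158 and 169 RPKM in KO at day 17, and 30.7 and 32.7 RPKM in WT and 155 and 144 RPKM in KO at day 25. As for *Dppa3*, the WT libraries of day 25 were the lowest of these 3 days. *Nanog* was higher in KO at day 25 by 2.23 ± 0.52 (SE, limma adjusted p = 0.00326) and lower in WT at day 25 than at day 11 by 2.32 ± 0.52 (SE, adjusted p = 0.00163). *Gdf3*, a TGF-beta family ligand on the other side of *Dppa3*, had the opposite course in WT. It had 8.87 and 8.53 RPKM in WT and 15.8 and 12.1 RPKM in KO at day 11, and 17.4 and 18.1 RPKM in WT and 23.7 and 21.3 RPKM in KO at day 25. Its rise in WT between these days was 1.02 ± 0.38 (SE, adjusted p = 0.0494), and its KO minus WT difference of 0.34 at day 25 was called only without the third day 1 pair (adjusted p = 0.00338). *Slc2a3*, a glucose transporter, was 0.56 ± 0.17 (SE) higher in KO at day 17 (limma adjusted p = 0.0357). *Apobec1* and *Rimklb* gave no KO minus WT call over all 34 libraries, and *Apobec1* was lower in KO at day 25 by 0.45 without the third day 1 pair (adjusted p = 0.00667).

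**Figure D3:**
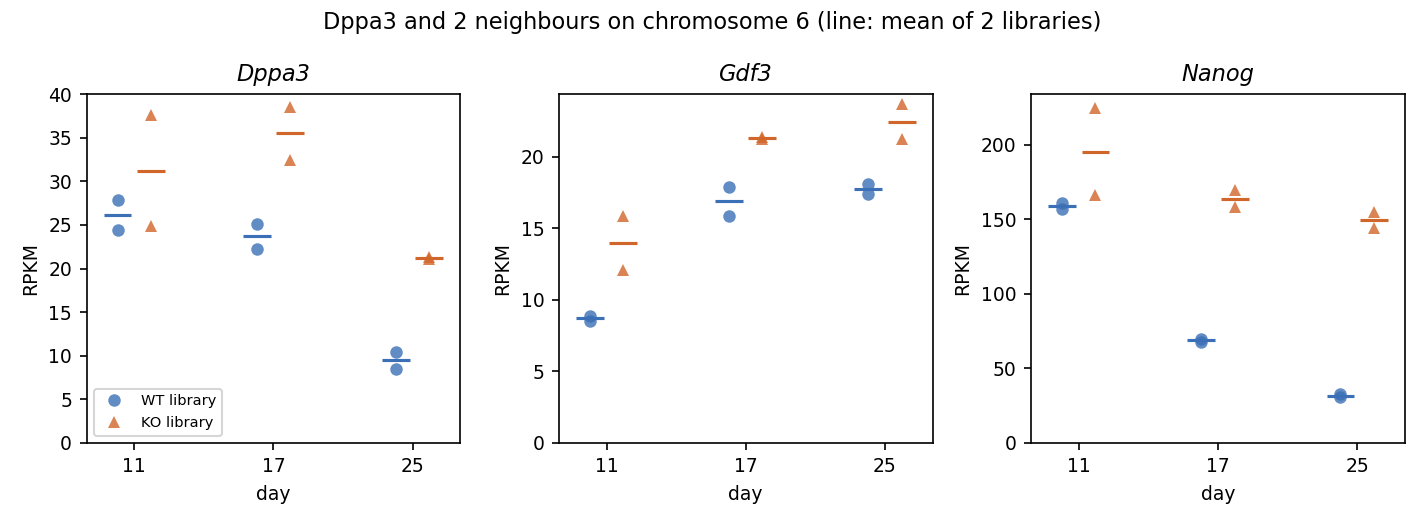
RPKM of *Dppa3*, *Gdf3* and *Nanog* at days 11, 17 and 25, with circles for WT libraries, triangles for KO libraries and short lines for the mean of 2 libraries. In WT, *Dppa3* and *Nanog* were lowest at day 25 (8.51 and 10.4 RPKM, and 30.7 and 32.7 RPKM), while *Gdf3* was higher at day 25 than at day 11.

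*Dppa2*, one of the paired chromatin genes, showed its differences at days 6 and 9. At day 6 the libraries labelled WT had 9.16 and 9.66 RPKM and those labelled KO 3.93 and 3.73 RPKM. At day 9 the WT libraries had 6.19 and 5.43 RPKM and the KO libraries 11.21 and 10.2 RPKM. The groups did not overlap at either day, and at both days the libraries with the lower *Dnmt1* level had the higher *Dppa2* level. The difference was -1.28 at day 6 and 0.87 at day 9, with an SE of 0.69 and no call over all 34 libraries (limma adjusted p = 0.619 and 0.896). Without the third day 1 pair the SE was 0.08 and both days were called (adjusted p = 1.83e-10 and 9.54e-08). These 2 calls also held when any 1 of the 4 libraries of the day was left out in addition, with differences between -1.31 and -1.24 at day 6 and between 0.78 and 0.96 at day 9. The summed fibroblast markers moved the same way, with 70.8 to 79.8 RPKM in the libraries labelled WT and 51.3 to 52.6 RPKM in those labelled KO at day 6 and 71.1 to 73.5 RPKM in WT and 108.8 to 115.6 RPKM in KO at day 9. Of the 12 tested, *Pdgfra*, *Sparc* and *Twist1* were called lower at day 6 and higher at day 9 over all 34 libraries. Without the third day 1 pair, 9 were called lower at day 6 and 10 higher at day 9, where 28% of all genes were called on each day. *Dcn* was at 0 in both libraries labelled KO at day 6. The part of these markers in the *Dppa2* differences was not tested.

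On the other days *Dppa2* differed little between the genotypes. At day 0 it had 7.30 and 7.87 RPKM in WT and 8.87 and 8.37 RPKM in KO, while day 3 gave 6.64 and 6.88 RPKM in WT and 7.37 and 6.92 RPKM in KO. At day 11 it had 19.5 and 18.7 RPKM in WT and 24.2 and 19.7 RPKM in KO. At day 17 it had 31.1 and 28.7 RPKM in WT and 35.1 and 35.5 RPKM in KO, while day 25 gave 28.9 and 27.1 RPKM in WT and 31.4 and 30.7 RPKM in KO. The KO libraries were the higher ones on all 5 days, by between 0.08 and 0.24 on the log2 scale, and only day 17 was called without the third day 1 pair (0.24, limma adjusted p = 0.0258). That call ended in 3 of the 4 fits that also left out a day 17 library. In WT, *Dppa2* was lower at day 9 than at day 0 by 0.38 and higher at day 25 than at day 11 by 0.55. Both were called without the pair (limma adjusted p = 0.00412 and 6.58e-06) and not with it. The first of these ended when replicate 2 of WT day 0 or of WT day 9 was left out in addition (-0.33 and -0.29).

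*Dppa4*, the other gene of the pair, stayed within a narrower range. At day 0 it had 28.8 and 28.9 RPKM in WT and 28.9 and 28.6 RPKM in KO, while day 1 gave 23.0 and 22.1 RPKM in WT and 22.2 and 23.2 RPKM in KO, with 68.1 and 54.4 RPKM in the third libraries. At day 3 it had 22.9 and 24.2 RPKM in WT and 20.6 and 19.6 RPKM in KO. At day 6 the libraries labelled WT had 23.0 and 22.8 RPKM and those labelled KO 20.004 and 18.3 RPKM. The libraries labelled KO were thus the lower ones at both days, by 0.23 and 0.26 on the log2 scale. By *Dnmt1* level the days went opposite ways. The libraries with the lower *Dnmt1* level had the lower *Dppa4* level at day 3 and the higher *Dppa4* level at day 6. At day 9 it had 24.7 and 23.2 RPKM in WT and 25.4 and 26.6 RPKM in KO, so that *Dppa4* and *Dppa2* were above WT in both KO libraries of that day. At day 11 it had 46.0 and 46.2 RPKM in WT and 59.7 and 46.2 RPKM in KO, while day 17 gave 69.0 and 54.8 RPKM in WT and 57.6 and 58.4 RPKM in KO. At day 25 it had 42.4 and 43.0 RPKM in WT and 50.8 and 49.1 RPKM in KO. No day was called over all 34 libraries. Without the third day 1 pair day 6 (-0.26, limma adjusted p = 0.0418) and day 25 (0.22, adjusted p = 0.0389) were called, and both calls ended when any 1 library of the day was left out in addition. Day 17 was called when WT replicate 2 of that day was left out as well (-0.25, adjusted p = 0.0491).

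*Morc1*, a germline ATPase gene next to the *Dppa2* and *Dppa4* pair, was the other row tested within 200 kb. It had 6.33 and 6.29 RPKM in the libraries labelled WT and 3.32 and 3.45 RPKM in those labelled KO at day 6, and 5.19 and 4.83 RPKM in WT and 9.23 and 8.82 RPKM in KO at day 9. At day 25 it had 2.65 and 2.80 RPKM in WT and 6.40 and 6.63 RPKM in KO, a difference of 1.23 ± 0.43 (SE, limma adjusted p = 0.0451). Its direction at days 6 and 9 was that of *Dppa2*, and both were called without the third day 1 pair (-0.88 and 0.84, adjusted p = 8.46e-08 and 1.89e-07), as were days 11 (0.60) and 17 (0.25). *Morc1* fell in WT between days 11 and 25 by 2.09 on the log2 scale (adjusted p = 0.000722), when *Dppa2* differed by 0.55 and *Dppa4* by -0.11.

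*Dppa5a*, the RNA-binding protein gene, was the most abundant member. At day 0 it had 350 and 391 RPKM in WT and 385 and 359 RPKM in KO, day 1 gave 389, 398 and 508 RPKM in WT and 396, 379 and 498 RPKM in KO, while day 3 gave 459 and 507 RPKM in WT and 469 and 461 RPKM in KO. At day 6 the libraries labelled WT had 376 and 413 RPKM and those labelled KO 386 and 367 RPKM, and at day 9 WT had 355 and 376 RPKM and KO 321 and 340 RPKM. The genotypes overlapped on all of these days but day 9. At day 11 it had 1043 and 921 RPKM in WT and 848 and 640 RPKM in KO. Both KO libraries were lower, by 0.41 ± 0.17 (SE) on the log2 scale. This was called without the third day 1 pair (limma adjusted p = 0.00626) and not with it (0.231). It was not called when WT replicate 1 or KO replicate 2 of day 11 was left out in addition to the pair (-0.32 and -0.21). At day 17 it had 592 and 501 RPKM in WT and 515 and 515 RPKM in KO, while day 25 gave 334 and 352 RPKM in WT and 354 and 380 RPKM in KO, with no call in either fit. The KO minus WT difference of day 25 exceeded that of day 11 by 0.51 ± 0.25 (SE), called without the pair (adjusted p = 0.00899) and not with it. It was also not called when WT replicate 1 (0.42) or KO replicate 2 (0.30) of day 11 was left out in addition to the pair.

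The fall of *Dppa5a* in WT between days 11 and 25 was 1.51 on the log2 scale, or 2.86-fold (SE 0.17, limma adjusted p = 1.03e-06), and was called in each fit that left out 1 library. Among all genes tested its change stood at percentile 2.88, and at percentile 5.95 of the fifth with the shortest exons, whose median was -0.25. The change of *Dppa3* stood at percentile 6.86 of the same length group. *Ooep*, a maternal-effect gene beside *Dppa5a*, had 35.3 and 35.9 RPKM in WT at day 11 and 11.4 and 10.9 RPKM at day 25, a fall of 1.67 ± 0.35 (SE, adjusted p = 9.82e-04). In KO *Ooep* had 41.6 and 31.4 RPKM at day 11 and 16.1 and 15.8 RPKM at day 25. Of the 20 rows within 200 kb of *Dppa5a*, 9 were tested. Those called between KO and WT over all 34 libraries were *C920006O11Rik* (0.83 at day 6 as labelled and -1.02 at day 25), *Eef1a1*, the gene of a translation elongation factor (1.104 at day 25), and *Slc17a5*, a lysosomal transporter gene (1.09 at day 17).

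The reads of *Dppa5b* did not follow genotype or day. Its share of the reads of both copies lay between 0.767% and 1.54% in 29 libraries and between 3.67% and 11.6% in 6, which were KO day 0 replicate 2, WT day 1 replicate 1, KO day 1 replicate 2, WT day 3 replicate 1, KO day 9 replicate 1 and WT day 11 replicate 1. The other libraries of these 6 groups had a low share. At day 9, for example, *Dppa5b* had 1128 reads beside 8560 of *Dppa5a* in KO replicate 1 (95% exact binomial interval of the share 11.01% to 12.3%) and 66 beside 7357 in KO replicate 2 (0.688% to 1.13%). The intervals cover counting error only. Summing the reads of both copies left all 11 comparisons of *Dppa5a* on the same side of the threshold. *Dppa1*, the remaining Dppa row, had no read in 33 libraries, with 1 and 4 reads in the KO libraries of day 17. With 3 reads as the floor, *Dppa1* was above it in 1 library.

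**Figure D4:**
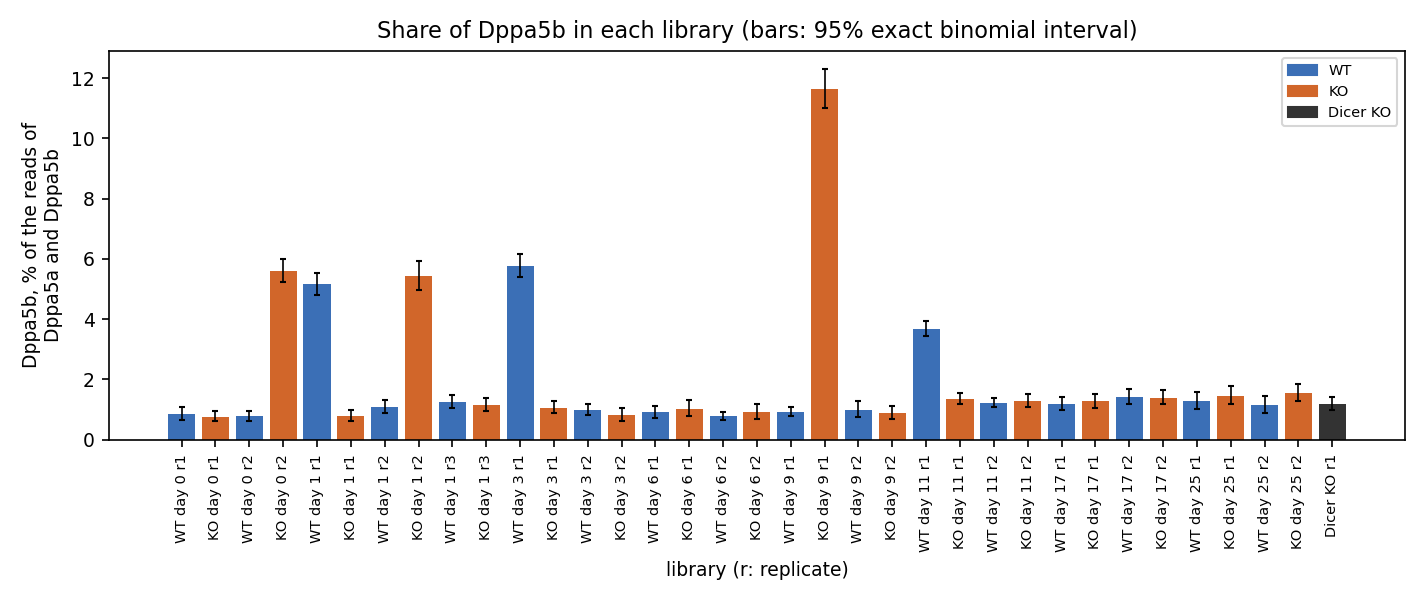
Share of *Dppa5b* among the reads of *Dppa5a* and *Dppa5b* in each library (bars, in %, with the 95% exact binomial interval), coloured by genotype. It was at least 3.67% in 6 libraries of both genotypes and at most 1.54% in the other 29.

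Whether KO and WT libraries of a day overlapped was a weak criterion, since over all genes tested they did not overlap in 37.6% of genes at day 0, 2.3% at day 1, 63.5% at day 3, 69.6% at day 6, 71.9% at day 9, 52.1% at day 11, 64.6% at day 17 and 82.8% at day 25. Of the 4 members, 2 did not overlap at day 0, 0 at day 1, 2 at day 3, 3 at day 6, 4 at day 9, 2 at day 11, 2 at day 17 and 4 at day 25.

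The *Dicer* KO library was described beside the WT libraries without a test, since it has no replicate. *Dppa3* had 1 read in it (0.0435 RPKM), while the 7 high-share WT libraries had between 8.51 and 27.9 RPKM from 228 to 837 reads and the 10 low-share WT libraries between 5.82 and 8.35 RPKM. The lowest of the 7 was 196 times the *Dicer* KO value, with an exact Poisson interval of 35.1 to 7731 that covers counting error of the *Dicer* KO reads only. On the log2(RPKM + 0.1) scale it stood at -7.01 relative to the mean of the 7 libraries, a value that rests on 1 read, below the floor of 3 reads. *Lin28a* (-6.89), the gene of an RNA-binding protein of ESCs, had 0.443 RPKM against at least 16.8 RPKM in the WT and KO libraries. *Dppa3* was 1 of 140 genes (1.21%) more than 1 log2 unit below all 17 WT libraries, and the other 3 members were not among them.

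*Dppa2* had 17.04 RPKM in the *Dicer* KO library, below the 7 high-share WT libraries (18.7 to 35.5 RPKM) and above the low-share ones (5.12 to 9.66 RPKM). *Dppa4* had 44.5 RPKM, within the range of the high-share WT libraries (42.4 to 69.0 RPKM), and *Dppa5a* had 715 RPKM, also within theirs (334 to 1043 RPKM). Among its family and its 5 tested neighbours, *Dppa3* lay furthest below the high-share WT libraries. *Nanog* had 107 RPKM (30.7 to 161 RPKM in the 7 libraries) and *Gdf3* 20.02 RPKM (8.53 to 18.3 RPKM). *Apobec1* had 3.54 RPKM (1.18 to 3.01 RPKM) and *Slc2a3* 179 RPKM (58.5 to 102 RPKM). *Rimklb* was also below the 7 libraries, with 2.08 RPKM against 5.12 to 6.57 RPKM (-1.46 on the log2 scale). *Dicer1* itself had 4.01 RPKM, within the 3.90 to 8.57 RPKM of the 7 libraries, so its RNA level does not check the label. The library also stood apart in markers of other cells. Of 18 fibroblast markers 12 exceeded each of the 17 WT libraries by over 1 log2 unit and none was at 0. Over all 11615 genes tested 751 exceeded them so. The summed level of the 18 markers was 462 RPKM against 38.4 to 79.8 RPKM in WT, of which *Vim* gave 226 and *Sparc* 125 RPKM. The ESC markers were not all within the WT range. *Pou5f1* had 128 RPKM, below the 7 high-share WT libraries (161 to 260 RPKM). *Utf1* had 7.14 RPKM and, like *Lin28a* above, was below all 17 WT libraries (at least 12.7 RPKM). Within the range of the 7 were *Sox2* (59.6 RPKM, against 44.1 to 84.6), *Zfp42* (18.5 RPKM, against 14.8 to 24.7), *Esrrb* (22.3 RPKM, against 11.7 to 28.4) and *Nanog*. The part of these markers in the *Dppa3* level was not tested.

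**Figure D5:**
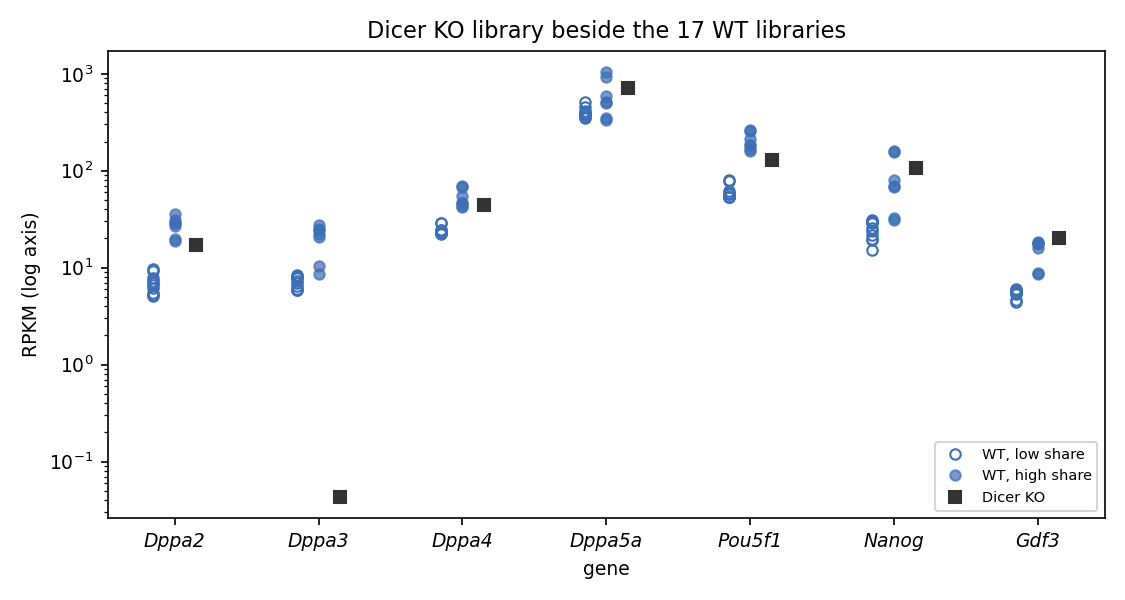
RPKM (log axis) of the 4 Dppa genes, *Pou5f1*, *Nanog* and *Gdf3* in the *Dicer* KO library (squares) beside the low-share WT libraries (open circles) and the high-share WT libraries (filled circles). *Dppa3* was at 0.0435 RPKM in the *Dicer* KO library, and the other 6 genes were between 17.04 and 715 RPKM.

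Other genes of the pathways in which the members act were counted from lists. The 14 genes of the 2-cell embryo in the table, the class known to respond to DPPA2 and DPPA4, are given by their summed level. At day 0 it lay between 0.471 and 0.542 RPKM in WT and between 0.462 and 0.631 RPKM in KO, and at day 3 between 0.131 and 0.146 RPKM in WT and between 1.83 and 2.14 RPKM in KO. At day 9 the WT libraries had 0.123 to 0.128 RPKM and the KO libraries 5.27 to 5.59 RPKM, when *Dppa2* and *Dppa4* differed by 0.87 and 0.12 on the log2 scale. At day 17 the WT libraries had 0.0541 to 0.0867 RPKM and the KO libraries 13.6 to 14.4 RPKM, when both differed by 0.24 and -0.08. The groups also lay apart at day 11 (0.171 to 0.358 against 5.02 to 7.87 RPKM) and at day 25 (0.109 to 0.160 against 1.77 to 1.84 RPKM), and at day 6 the libraries labelled WT were the higher ones, with 5.68 to 5.76 RPKM against 0.0339 to 0.0642 RPKM. *Zscan4c*, *Zscan4d*, *Zscan4f* and *Dub1a* were the 4 tested. They passed the filter on low values only through libraries in which they were high, so their calls count for nothing here. Copies of *Zscan4* are near-identical, so their single values are uncertain. The *Dicer* KO library had a summed level of 0.186 RPKM, with 12 of the 14 genes at 0 and 0.167 RPKM from 10 reads of *Zfp352*. That sum was within the range of the WT libraries (0.0541 to 5.76 RPKM). The top of this range is from the day 6 libraries labelled WT, and WT libraries of other days had at most 0.542 RPKM.

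Of 12 genes of methylation maintenance and removal, in which DPPA3 acts through UHRF1, *Dnmt1* was called lower in KO on each labelled day from 1 to 25 but day 6. *Dnmt3a* was called lower at day 17 (-1.89), and *Dnmt3b* (-1.17) and *Trim28* (-0.67) at day 25. *Tet3* (-1.96 at day 25) was above 1 RPKM in 2 WT libraries and in no KO library, so its call is not counted. *Uhrf1* was not called on any day over all 34 libraries, and without the third day 1 pair it was called higher in KO at days 9 (0.21), 11 (0.36), 17 (0.24) and 25 (0.33) and lower at day 6 as labelled (-0.30). Of 14 other genes of primordial germ cells, 7 were called higher in KO at day 25 and none lower, among them *Dazl* (4.56), *Prdm14* (1.98) and *Rhox9* (2.58). At day 17 7 were higher and none lower, and at day 11 there were 5 higher. These counts hold *Tex101* (days 17 and 25) and *Prdm1* (days 11 and 17), which were above 1 RPKM in 0 and 1 WT libraries, so they support nothing on the list. With the third day 1 pair left out day 3 gave 5 calls above WT and 1 below, day 6 as labelled 0 and 7, day 9 gave 6 and 1, day 11 gave 8 and 0, day 17 gave 9 and 1, and day 25 gave 8 and 2. Of all genes 11.9%, 28%, 28%, 35.8%, 40.9% and 65.9% were called in that fit on these days. The day 25 counts of this list and of the naive list below lie near that share. Over all 34 libraries the shares were 5.62%, 10.4% and 20.9% at days 11, 17 and 25. Of 12 naive pluripotency genes, 3 were higher at day 25 (*Nanog*, *Prdm14*, which is on both lists, and *Tcl1*) and 3 at day 17 (*Prdm14*, *Klf2* and *Tcl1*), and none was called between days 0 and 11. With that pair left out none was called at day 3, 6 were lower at day 6 as labelled, 3 were higher at day 9, day 11 gave 1 above WT and 1 below, day 17 gave 8 above, and day 25 gave 7 above and 1 below. Of 10 core pluripotency genes, 3 were lower at day 25 (*Sall4*, *Utf1* and *Trim71*) and none was called on the other days over all 34 libraries. Without the pair day 3 gave 1 above WT and 3 below, day 6 as labelled gave 3 and 2, day 9 gave 2 and 4, day 11 gave 2 and 2, day 17 gave 3 and 5, and day 25 gave 6 and 4. Of 5 tested genes of the subcortical maternal complex, to which OOEP belongs, day 25 gave 2 calls above WT and 1 below, or 4 and 1 without the pair.

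The genes most like each member in pattern were found by Pearson r over the 34 WT and KO libraries after the mean of each day had been subtracted, with the third day 1 pair as a day of its own. The libraries of a day share their set of exon share, so the values are a description. *Dppa3* was most like *Ubxn4* (r = 0.947), *Tram1* (0.935) and *Chmp2a* (0.935), and *Dppa2* was most like *Mt2* (0.928), *Man1a2* (0.905) and *Rnf219* (0.891). *Dppa4* was most like *Ahsa1* (0.912), *Psmc4* (0.883) and *Chchd2* (0.877), and *Dppa5a* was most like *Lman1* (0.812), *Tiparp* (0.803) and *Pot1a* (0.799). Without day 6 the 3 genes most like *Dppa2* were others, *Apobec2* (0.873), *Fbxo33* (0.864) and *Dkk1* (0.854). The lists of the other members changed in part. *Adipor1* (0.950) came first for *Dppa3*, which kept *Ubxn4* and *Tram1*. *Dppa4* kept *Ahsa1*, beside *Snrpb* (0.922) and *Psmb4* (0.877), and *Dppa5a* kept *Lman1*, beside *Pts* (0.855) and *2410006H16Rik* (0.844). Among the members themselves r was 0.525 for *Dppa2* and *Dppa4* (0.373 without day 6), 0.433 for *Dppa3* and *Dppa4* (0.501 without day 6) and 0.220 for *Dppa2* and *Dppa3* (0.417 without day 6). No other member was among the 3 most alike genes of any member.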

How the data were processed

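Ribosome-depleted total RNA had been sequenced for 17 WT, 17 *Dnmt1* KO and 1 *Dicer* KO library, grouped by the labels. Per the submitters' notes and the methods, the authors trimmed reads with Trim Galore 0.3.5, aligned them to NCBIM37 with TopHat2 2.0.11, dropped alignments with poor mapping scores and used SeqMonk for the values per gene. These deposited values are linear RPKM per gene (the methods name log2 RPM). The step of 1 read in each library was estimated from one-exon genes. With this step RPKM multiplied by exon length gave whole reads (within 0.1 read) in 99.51% to 99.74% of values below 20 reads. That share is over all genes with an exon length, and the step gave the reads behind each value. Library totals were 24.31 M to 72.09 M reads (M, mega-reads). The members and gene lists were chosen with earlier results of these data known.

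Genes with RPKM above 1 in at least 2 libraries were tested with limma 3.58.1 (R 4.3.3) on log2(RPKM + 0.1), with a model of 16 group means, eBayes with a trend and Benjamini-Hochberg adjustment, after the script had been tested on simulated data. On this scale the change of low genes is understated. Neighbours were all rows within 200 kb of a member, and list genes could be named from any list. Replicate pairs differed beyond sampling noise (lowest chi-square per degree of freedom 1.31). Alternatives were another pseudocount, no filter, median centring, voom on the recovered reads, only the groups compared, the third day 1 pair left out, a replicate block and leaving out each library. Leaving out libraries in addition to that pair, and summing *Dppa5a* and *Dppa5b*, were chosen after seeing the data.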

Additional observations from a re-analysis of the deposited data

Results flagged for a closer look

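The KO minus WT difference (log2 scale, as labelled) of *Dppa2* at day 6 stood apart from that of other days. It differed from that of day 0 by -1.46 and from that of day 3 by -1.35, and the difference of day 9 exceeded it by 2.15, that of day 11 by 1.47, that of day 17 by 1.52 and that of day 25 by 1.42. In each of these pairs of days both KO libraries of one day lay above WT and both of the other below. None of the 6 was called by limma over all 34 libraries (adjusted p between 0.24 and 1), and all 6 were without the third day 1 pair (adjusted p between 4.1e-12 and 1.58e-08). Of all genes between 0.99% and 15.2% were called for these pairs of days over all 34 libraries, and between 15.1% and 59.9% without the pair. Day 6 is the day on which *Dnmt1* went against the labels.

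For *Dppa4* the day 9 difference exceeded that of day 3 by 0.35 and that of day 6, where *Dnmt1* went against the labels, by 0.38. The day 25 difference exceeded them by 0.46 and 0.48. None was called over all 34 libraries (limma adjusted p between 0.641 and 1), and without the third day 1 pair the adjusted p was 0.171, 0.0254, 0.00638 and 0.00351 in this order, where 2.85%, 42.4%, 53.3% and 59.9% of all genes were called. For *Dppa5a* the day 25 difference exceeded that of day 9 by 0.24 (limma adjusted p = 0.707, and 0.211 without the pair) and that of day 11 by 0.51 (0.201, and 0.00899 without the pair), where 49% and 57.5% of all genes were called without the pair.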

How the results depend on the processing

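Most member results kept their direction and side of the threshold: all 44 with a pseudocount of 1, without a filter and with voom on recovered reads, 47 of 48 with median centring (the *Dppa3* difference between days 25 and 11 became 1.05 and was called), and 195 of 200 fits that left out 1 library. Most of these 200 fits were of results not called in the main fit, where staying uncalled says little. The *Dppa3* day 25 difference lay between 1.02 and 1.31 in those fits, and its call ended in each of them. The WT change of *Dppa3* from day 11 to 25 lay between -1.60 and -1.32, and its call ended when replicate 1 of WT day 25 was left out. Leaving out the third day 1 pair added calls for *Dppa2* (-1.28 at day 6, 0.87 at day 9, 0.24 at day 17, -0.38 for WT day 9 against 0, 0.55 for WT day 25 against 11), *Dppa3* (0.58 at day 17, 0.93 between days), *Dppa4* (-0.26 at day 6, 0.22 at day 25) and *Dppa5a* (-0.41 at day 11, 0.51 between days). With only the groups compared, *Dppa4* was called at day 3 (-0.23), day 6 (-0.26) and day 25 (0.22) and for WT day 9 against 0 (-0.27), *Dppa2* at days 6 (-1.28) and 9 (0.87) and in WT (-0.38 and 0.55), and *Dppa3* at day 17 (0.58) and between days (0.93). With a replicate block, *Dppa2* at days 6, 9 and 17 (-1.28, 0.87, 0.24), *Dppa3* at day 17 (0.58) and between days (0.93) and *Dppa5a* at day 11 (-0.41) and between days (0.51) were called. The main fit did not pair libraries by replicate number. The deviations from the group means were correlated between the WT and KO libraries of one number. On days with 2 libraries per genotype both numbers give the same r, which lay between -0.159 and 0.087, and was 0.26 at day 11. At day 1, where the third libraries of both genotypes stand apart, r was 0.833, 0.775 and 0.912. For the *Dicer* KO library, the *Dppa2* difference of -0.63 turned to 0.51 against all 17 WT libraries and 1.16 against WT day 0, *Dppa3* became -6.20 and -5.38, and *Dppa4* 0.42 and 0.62, since these references hold low-share libraries. Genes called at day 25 rose from 2430 to 4050 without a filter, 5057 with median centring, 7655 without the third pair, 7433 with the replicate block and 7287 with only the groups compared, and at day 11 the last gave 311 beside 653. The cause was not tested. Median centring moved all differences by 0.11 at day 11 and 0.18 at day 17. The SE of a KO minus WT difference over all 34 libraries was 0.69 for *Dppa2* and 0.37 for *Dppa3*, which limits what that fit can call.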

Other observations

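Markers of other cells also differed between the genotypes. The summed level of 10 trophoblast markers lay between 34.6 and 36.1 RPKM in WT and between 110.7 and 141 RPKM in KO at day 11, and between 44.0 and 44.2 RPKM and between 45.1 and 47.9 RPKM at day 25. *Krt8* and *Krt18*, keratin genes, were called higher in KO by limma over all 34 libraries at day 11 (2.00 and 1.73) and at day 17 (2.29 and 2.10). *Ascl2*, *Hand1* and *Krt7* were above 1 RPKM in KO libraries and in no WT library, so their calls are not counted. *Eomes* was higher at day 25 (0.88). Of 7 primitive endoderm markers tested, 3 were called lower at day 6 as labelled (*Pdgfra*, *Sparc* and *Gata6*) and 4 higher at day 9 (the same 3 and *Dab2*). Of 3 early differentiation genes tested, *Otx2*, a homeobox factor of the primed state, was called lower in KO at days 9 (-1.74), 11 (-1.85) and 17 (-1.46). This list also gave 1 call below WT at day 3, 1 above at day 6 as labelled, and 1 above and 1 below at day 25.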
